A study of Homo sapiens with 6 samples.

Results

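The peaks described here are stretches of chromatin in HepG2 cells, an established human liver cancer line derived from a hepatoblastoma, that were enriched by the tandem Tudor domain (TTD) of UHRF1 and that lie between genes but not far from them. They were chosen by position alone. A peak was taken when it touched no protein-coding gene of GENCODE release 44, contained no start site (TSS) of a lncRNA gene, and had its nearer edge more than 2.5 kb and at most 100 kb from the nearest protein-coding TSS. Of 31569 TTD peaks, 8237 met this rule, which is 26.1% of the list (95% Wilson interval 25.6 to 26.6%). They are called near intergenic peaks in what follows.

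In CIDOP, chromatin is enriched by a purified protein domain that binds histone marks, in place of an antibody. The domain here carried a GST tag and was the TTD of human UHRF1 from residue 126 to residue 280. Native mononucleosomes of HepG2 cells were pulled down with this domain in 2 replicates. The study also had 2 H3K9me2 ChIP libraries and 2 input libraries, whose signals were not analysed here. The authors pooled both TTD replicates before calling peaks, so 1 list of positions and widths on hg38 carries all values below, with no score, no depth and no error between replicates. Intervals given below are 95% intervals for counting error only.

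UHRF1 is needed to keep DNA methylation in place when DNA is copied, and its TTD reads the tail of histone H3 methylated at lysine 9. Sequence between genes holds many enhancers, short stretches from which transcription factors act on genes at a distance, often marked by monomethylation of lysine 4 of H3. In hepatocytes, factors of the FOXA, HNF4, HNF1 and C/EBP families bind such stretches at genes for plasma proteins, metabolism and detoxification.

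To show what kind of sequence these peaks hold, 4 stretches of sequence from near intergenic peaks at liver genes are printed first, from the hg38 reference, plus strand, in lower case with a short factor word in capitals. Each is centred on the match nearest to the peak centre in the widest such peak that holds the word in its central 500 bp. The words searched on both strands were TGTTTAC for the FOX factors, CAAAGTCCA for HNF4, TTGCNNAA for C/EBP and GTTAATNAT for HNF1. None of the 4 sites lies in a lncRNA gene, and a match is a run of letters, not a measured binding site.
FOX word upstream of AKR1C1, chr10:4948590-4948690: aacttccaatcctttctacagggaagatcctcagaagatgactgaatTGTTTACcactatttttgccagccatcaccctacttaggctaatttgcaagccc
C/EBP word in the same peak, chr10:4948686-4948786, with the match on the minus strand: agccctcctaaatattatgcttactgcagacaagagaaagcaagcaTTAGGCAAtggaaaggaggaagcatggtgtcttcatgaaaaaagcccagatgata
HNF4 word upstream of CP, chr3:149245661-149245761: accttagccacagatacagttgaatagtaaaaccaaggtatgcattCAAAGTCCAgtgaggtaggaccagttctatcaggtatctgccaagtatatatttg
HNF1 word upstream of NR1H4, chr12:100440030-100440130: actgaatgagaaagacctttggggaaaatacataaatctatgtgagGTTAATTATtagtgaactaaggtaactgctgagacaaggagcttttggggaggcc

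The first peak lies 3.02 kb from the TSS of AKR1C1, a ketosteroid reductase of the aldo-keto reductase family, and is 23470 bp wide. The peak at CP, the gene of the copper protein ceruloplasmin, is 4320 bp wide and 21.6 kb from the TSS. The peak at NR1H4, which codes for the bile acid receptor FXR, is 13820 bp wide and 26.8 kb away. Read with 6 bases on either side, each of the 4 words occurs 1 time in the genome at exactly these letters, so none of these contexts recurs elsewhere.

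Near intergenic peaks were mostly a few kb wide. Their median width was 2240 bp (2190 to 2290 bp), with quartiles at 1380 and 3590 bp. The narrowest spanned 190 bp and the widest 33040 bp, 149 peaks reached 10 kb or more, and together the 8237 peaks covered 23.8 Mb. Remote intergenic peaks, more than 100 kb from a TSS, had a median of 2400 bp (2330 to 2460 bp). Deep intronic peaks, inside a protein-coding gene without touching an exon and more than 2.5 kb from a TSS, had a median of 2100 bp (2070 to 2140 bp). Near intergenic peaks thus stood between both in width, with intervals that do not overlap, and were wider than deep intronic peaks on 22 of 24 chromosomes. They were narrower than remote peaks on 16 of 24 chromosomes. The share of peaks that touched a lncRNA gene body was 26.5% (25.5 to 27.4%), against 41.8% of the remote and 9.57% of the deep intronic peaks. Of 1879 annotated miRNA genes, 9 lay whole within a near intergenic peak, as did 16 of 1901 snRNA and 4 of 942 snoRNA genes.

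The 10 widest peaks stood beside genes of varied roles. The widest, of 33040 bp at positions 120821821 to 120854860 of chromosome 8, lies 8.55 kb upstream of SNTB1, a syntrophin of the dystrophin complex. A pair of peaks of 30300 and 28220 bp lies upstream of TMEM17, which codes for a membrane protein of the ciliary transition zone. At GSTA2, a glutathione S-transferase of the liver, a peak of 29480 bp spans positions 52718701 to 52748180 of chromosome 6, 15.3 kb from the TSS and beyond the 3′ end of the gene. The others were nearest to PHYHIPL (30290 bp), NOX3 (25750 bp), SH3BP4 (25460 bp), TFB1M (25220 bp), TCIM (25000 bp) and BCAS1 (24930 bp). The wide peak at SH3BP4 and the wider of the TMEM17 pair lie entirely within lncRNA genes, and 6 of the 10 touch none.

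Some peaks lay close to the limits of the rule, inside and outside. The peak just inside the lower limit lay 2503 bp from the TSS of ISL2, and the one just outside lay 2500 bp from that of CDC34. At the upper limit, a peak 99983 bp from FABP2 was taken and one 100046 bp from SERBP1 was not.

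The distance to genes was compared with the sequence that could have held such a peak, called eligible sequence: 625.3 Mb outside protein-coding genes and assembly gaps, more than 2.5 kb and at most 100 kb from the nearest protein-coding TSS. Over all of it there were 13.2 near intergenic peaks per Mb (12.9 to 13.5). From 2.5 to 5 kb of a TSS there were 13.5 per Mb (12.3 to 14.8), from 5 to 10 kb 13.99 per Mb (13.1 to 14.9) and from 50 to 100 kb 12.05 per Mb (11.6 to 12.5). The density from 2.5 to 10 kb was 1.15 times that from 50 to 100 kb (1.07 to 1.23) and was the higher on 19 of 24 chromosomes. By distance alone, with both sides pooled, the density thus varied little. The small excess towards the TSS was not found among the peaks no narrower than the median of all peaks, for which the ratio was 1.03 (0.938 to 1.13). Counted as bases, the order was the other way, since 3.49% of the eligible bases from 5 to 10 kb and 3.78% of those from 50 to 100 kb lay in these peaks. A peak is counted at its nearer edge while its bases lie farther out, and a peak that reaches closer than 2.5 kb is left out by the rule. The median width was 2100 bp (1950 to 2230 bp) from 5 to 10 kb and 2350 bp (2270 to 2420 bp) from 50 to 100 kb.

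Peaks lay upstream and downstream of genes as the eligible sequence did. Of the 8237 peaks, 6104 were upstream of the nearest TSS, or 74.1% (73.1 to 75.04%), and 73.8% of the eligible sequence is upstream. The densities were 13.2 per Mb upstream (12.9 to 13.6) and 13.01 per Mb downstream (12.5 to 13.6). By distance, however, both sides had different profiles. Upstream, the density went from 14.7 per Mb at 5 to 10 kb (13.7 to 15.8) to 11.4 per Mb at 50 to 100 kb (10.8 to 11.98). Downstream, where the sequence begins only beyond the 3′ end of the gene, it was 9.68 per Mb (7.73 to 11.97) at 5 to 10 kb, 14.05 (13.01 to 15.1) at 25 to 50 kb and 13.3 (12.5 to 14.2) at 50 to 100 kb. Close to a TSS, the downstream values come from short genes, with 20 peaks from 2.5 to 5 kb. How the flanking genes point mattered little: there were 13.2 peaks per Mb between genes that point away from each other (head to head), 13.1 between genes in tandem and 13.5 between genes that point towards each other (tail to tail), with overlapping intervals.

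**Figure D1:**
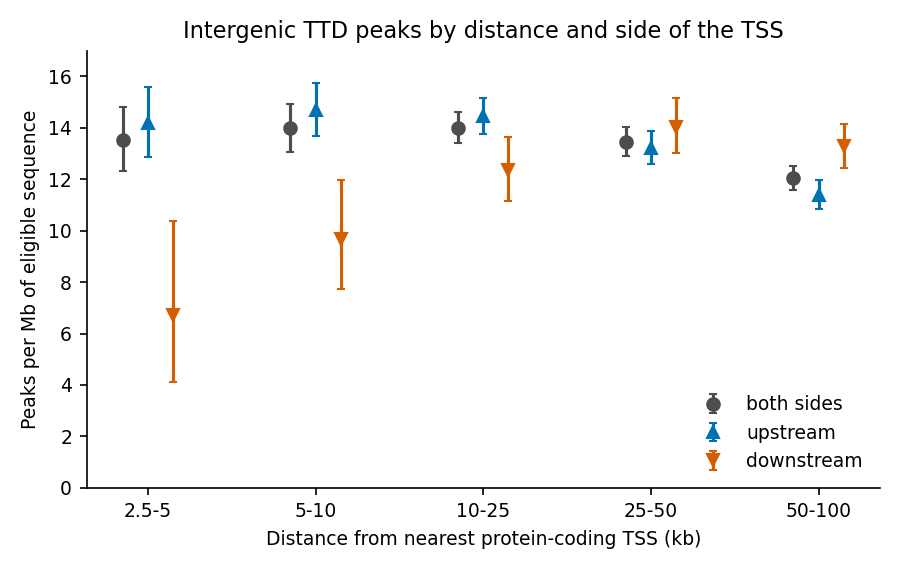
Near intergenic TTD peaks per Mb of eligible sequence (vertical axis) in 5 ranges of distance from the nearest protein-coding TSS in kb (horizontal axis), for both sides and for each side of the TSS. Bars are exact 95% Poisson intervals; the upstream density is highest from 5 to 10 kb at 14.7 per Mb, and the downstream density is 6.71 per Mb in the nearest range, highest from 25 to 50 kb at 14.05 and 13.3 in the farthest.

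The density differed more between chromosomes than with distance. Chromosome 20 had 25.5 near intergenic peaks per Mb of its eligible sequence (23.04 to 28.1), chromosome 2 had 23.9 (22.6 to 25.4), chromosome 14 had 21.5, chromosome 6 had 21.3 (19.8 to 22.8), chromosome 16 had 20.3 and chromosome 17 had 17.7. Chromosomes 2, 14, 16, 17 and 20 were named as gained in HepG2 here from general knowledge, and chromosome 6 was not. The median of the other 17 autosomes was 11.04 per Mb, with the lowest value on chromosome 19 (6.11) and the highest on chromosome 6. Copy number is not in the files, for chromosome 6 or any other, and its part in these densities was not tested. On chromosome 6 the peaks were dense over most of its length: of its 16 blocks of 10 Mb with at least 1 Mb of eligible sequence, 10 held more than 20 per Mb, with a median of 21.8, against a median of 11.7 over the 278 such blocks of the genome. The block from 90 to 100 Mb of chromosome 6 was an exception, with 2 peaks and 1.48 per Mb. Chromosome X had 2.83 per Mb (2.35 to 3.38), the lowest value of the 24 chromosomes.

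**Figure D2:**
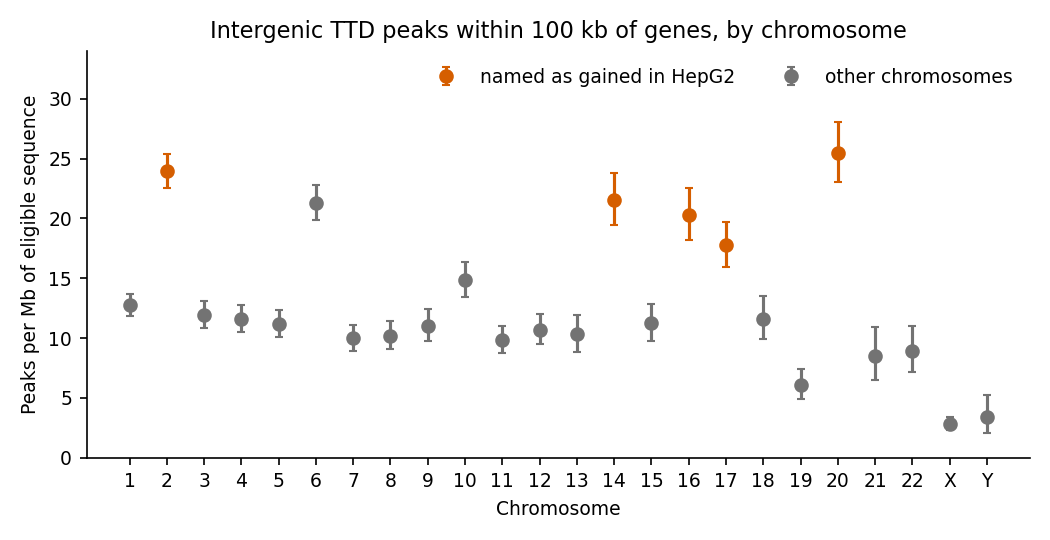
Near intergenic TTD peaks per Mb of eligible sequence (vertical axis) for each chromosome (horizontal axis), with exact 95% Poisson intervals; the 5 chromosomes named as gained in HepG2 are in orange. They lie between 17.7 and 25.5 per Mb, and of the other chromosomes chromosome 6 alone lies in that range.

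Many of these peaks stood in groups. Another TTD peak of any class was less than 5 kb away for 41.2% of near intergenic peaks (40.1 to 42.2%), against 34.4% of remote (33.1 to 35.7%) and 35.6% of deep intronic peaks (34.7 to 36.5%). Over all peaks the share was 37.7% (37.2 to 38.3%). It was higher, at 48.4%, for the 494 intergenic peaks that contain a lncRNA TSS. For intergenic peaks closer to a protein-coding TSS than the rule allows it was 35.9%, and for the remaining genic peaks 39.3%. The near intergenic share was above that of deep intronic peaks on 21 of 24 chromosomes and above that of remote peaks on 16 of 24. It rose with width, from 31.4% in the narrowest of 4 equal groups of near intergenic peaks to 58.3% in the widest (56.2 to 60.5%). No 2 listed peaks were closer than 610 bp, so the list does not resolve shorter gaps. When peaks less than 5 kb apart were chained, 121 chains with at least 1 near intergenic peak had 5 or more peaks, and 505 near intergenic peaks were in them. The longest chain ran from position 62447381 to 62608230 of chromosome 2, across TMEM17 and towards EHBP1, with 18 peaks that fill 83.2% of its 160.9 kb. Of the other chains with at least 8 near intergenic peaks, those at MAP4K3 (11 peaks) and between PKDCC and EML4 (9 peaks) held 9. Those at FZD5 (11 peaks), EHBP1 (10 peaks) and FOXA2 (9 peaks) held 8. The chain at FOXA2 on chromosome 20 filled 86.2% of 73.9 kb. Chains of 8 peaks, all near intergenic, were seen beside DUSP6, a phosphatase that acts on ERK, and between PSMA6 and NFKBIA, the inhibitor of NF-kB.

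The peaks were also counted in the stretches between neighbouring genes, which differ widely in eligible length; the counts were not compared with that length. Of 13268 such intervals with eligible sequence, 3759 held at least 1 near intergenic peak, or 28.3%. In 2018 of them there was 1 peak, while 384 intervals with 5 or more peaks held 33.0% of all near intergenic peaks. The interval between LGSN and PTP4A1 on chromosome 6 held 21, which cover 51.0% of its 201.8 kb. Between MOGAT1, an acyltransferase of triglyceride synthesis, and ACSL3, which activates fatty acids, there were 17. The interval of 162.0 kb between TMEM17 and EHBP1 held 15 and was covered to 71.4%.

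Each peak was assigned to the protein-coding gene with the nearest TSS, which says nothing of which gene it acts on. By this measure 4187 of 20033 genes had a near intergenic peak, which is 20.9% of all protein-coding genes, and 2406 of them had 1. At the other end, 317 genes had 5 or more and took 25.7% of the peaks. The 10 genes with the most peaks were ranked by count, not by density. They had from 78.5 to 193.1 kb of eligible sequence, against a median of 12.9 kb over all protein-coding genes. BMP4, a ligand of the TGF-beta superfamily, TMEM17 and the zinc finger gene ZNF281 had 14 each. PTP4A1, a phosphatase of growing cells, and RHOB, a small GTPase, had 13 each. FOXA2, which opens chromatin for other factors in endoderm and liver, had 12 peaks that filled 35.6% of its 193.0 kb of eligible sequence. TSPYL5, the kinase gene MAP4K3, SPRY1, which restrains receptor tyrosine kinase signalling, and EHBP1, which acts in endocytic traffic, had 11 each. For BMP4 the peaks lay from 13881 to 85110 bp from the TSS and their median width was 4810 bp. For FOXA2 they lay from 13215 to 95115 bp away, 2 of them upstream and the rest beyond the 3′ end, with the widest at 14020 bp. The peaks of ZNF281 were narrower, with a median of 2055 bp. At RHOB and SPRY1, the 5 kb around the TSS and the gene itself lay outside the listed peaks, although both are flanked by many of them. Of the 10 genes, 6 lie on chromosomes named as gained.

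**Figure D3:**
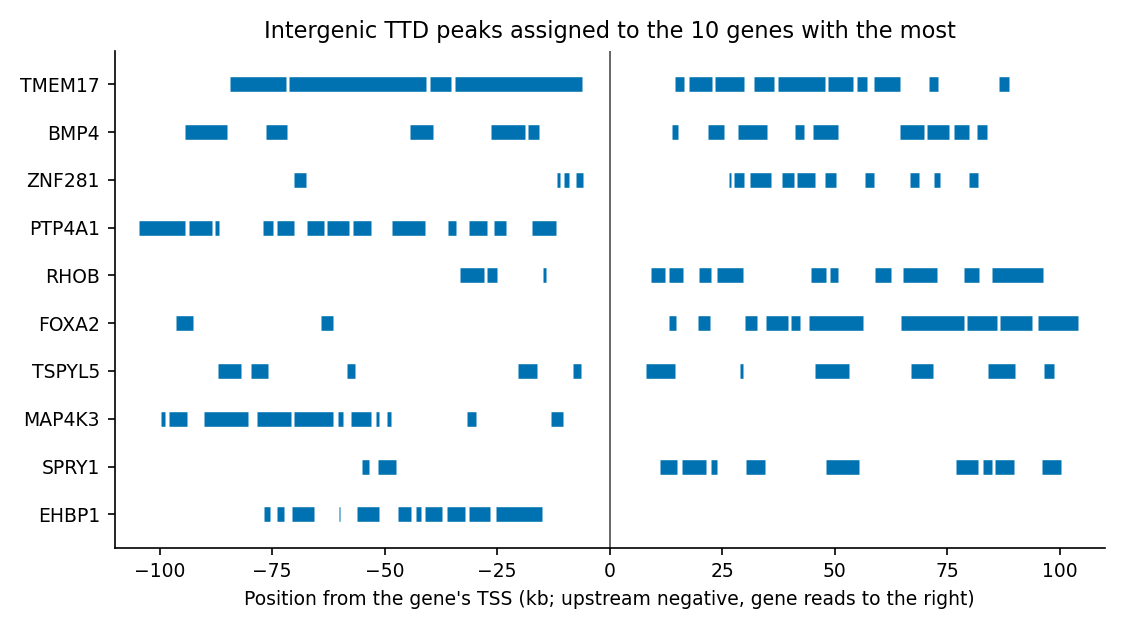
Near intergenic TTD peaks assigned to each of the 10 genes with the most (1 line per gene), drawn to scale by their distance in kb from the TSS of the gene (horizontal axis, upstream to the left). Both flanks of BMP4, RHOB and SPRY1 hold peaks, while those of PTP4A1, MAP4K3 and EHBP1 lie upstream, 13, 11 and 11 of them.

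Genes with near intergenic peaks more often had TTD peaks of their own. A peak of any class touched the gene body for 49.3% of the 4187 genes (47.8 to 50.8%), against 28.6% (27.8 to 29.5%) of the 10765 genes with eligible sequence but no near intergenic peak. For the 317 genes with 5 or more the share was 66.6% (61.2 to 71.5%). A peak within 2.5 kb of the TSS was found for 25.9%, 13.6% and 43.2% of these genes in the same order. Genes with a near intergenic peak were longer, with a median of 36.6 kb against 25.3 kb, and the share with a peak in the gene body was compared within 4 ranges of gene length. It was higher for genes with a near intergenic peak than for those without in each range. Among genes under 10 kb these gene body shares were 14.5% (12.3 to 17.1%) and 6.03% (5.23 to 6.93%), and among genes of 100 kb and more 83.2% (80.8 to 85.4%) and 67.1% (65.0 to 69.2%). They also had more eligible sequence, with a median of 58.8 kb against 17.1 kb, and its part in the result was not tested.

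Gene lists for liver functions, for other cell types and for genes used in all cells were then compared by their counts. The lists were chosen with earlier results of these data known, so the comparison is a description and not independent support. Of 186 genes in 5 liver lists, 85 had a near intergenic peak, or 45.7%, beside the 20.9% of all genes. Of 131 genes in 4 lists of other cell types it was 22, or 16.8%. Per Mb of the eligible sequence of its genes, the liver lists together held 30.1 peaks (26.3 to 34.4), the lists of other cell types 7.39 (5.15 to 10.3) and all protein-coding genes 13.2. The median gene of the liver lists had 20.3 kb of eligible sequence and that of the other lists 19.7 kb. Over all protein-coding genes the median was 12.9 kb, and 74.6% of them had any eligible sequence, so the 20.9% is not a like baseline. The 5 liver lists were at 21.6 to 38.2 per Mb and the 4 other lists at 5.91 to 10.8. Since peaks stand in groups and a few genes hold many of them, these counting intervals are too narrow for a call on any 1 list. Without the 5 chromosomes named as gained, the densities were 27.7 (23.8 to 32.1) for the liver lists, 5.51 (3.36 to 8.50) for the other cell types and 11.1 for all genes. Chromosome 6 was kept in these densities. No expression was measured here, so whether the genes are active in these cells cannot be stated from these data.

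**Figure D4:**
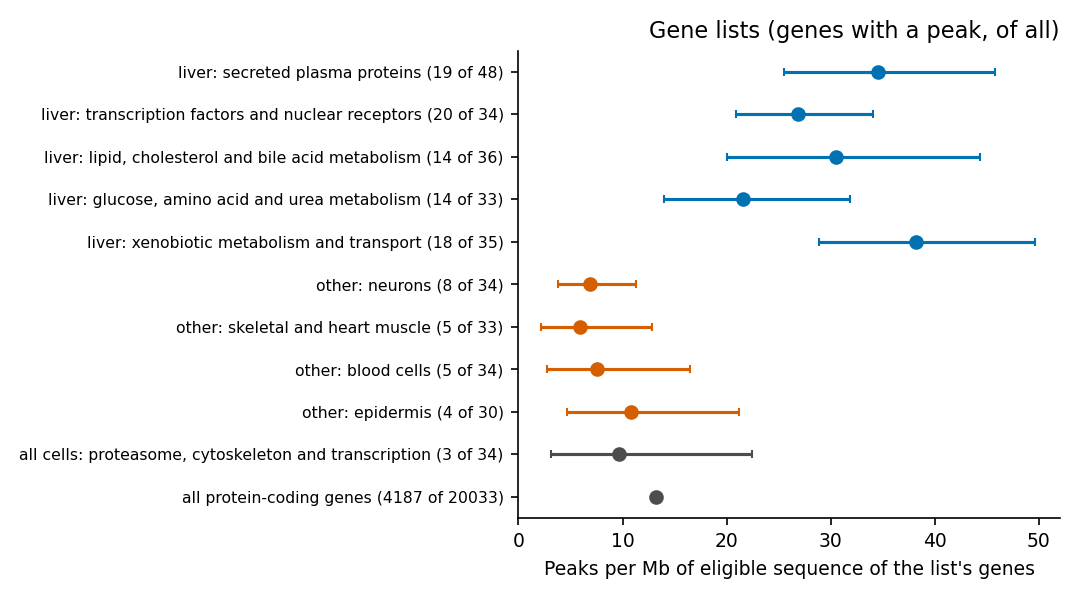
Near intergenic TTD peaks per Mb of the eligible sequence of each list's genes (horizontal axis), with exact 95% Poisson intervals; each line is a gene list, with the number of genes that had a peak and the size of the list in brackets. The 5 liver lists (blue) lie between 21.6 and 38.2 per Mb, the 4 lists of other cell types (orange) between 5.91 and 10.8, and all protein-coding genes at 13.2.

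The list of genes for secreted plasma proteins had 19 of 48 genes with a near intergenic peak and 34.6 peaks per Mb (25.5 to 45.8). FN1, which codes for fibronectin, had 9 peaks, all upstream, which filled 49.4% of its 97.5 kb of eligible sequence. ALB, the gene of serum albumin, had 5 peaks from 14164 to 66134 bp upstream, the widest of 10430 bp, and the whole of the 5 kb around its TSS lay in a peak. SERPINA1, which codes for alpha-1 antitrypsin, had 4 upstream peaks that filled 52.3% of 28.6 kb, while its gene body and the 5 kb around its TSS held none. CP had 4 upstream peaks, and MBL2, a lectin of the complement system, had 4 peaks and a gene body that lay in peaks over its full length.

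Of 34 liver transcription factors and nuclear receptors, 20 had a peak, with 26.9 peaks per Mb (20.9 to 34.1). Their genes also have the most room, with a median of 85.7 kb of eligible sequence against 10.8 to 23.7 kb in the other liver lists. After FOXA2, most peaks were assigned to PROX1, a homeobox factor of hepatocyte development, with 8 of 3270 to 7070 bp, each within a lncRNA gene. TBX3 and TCF7L2, the latter an effector of Wnt signalling, had 6 each and NR2F2 (COUP-TFII) had 5. The peaks of TBX3 filled 7.24% of its eligible sequence and those of PROX1 29.3%.

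In both lists for metabolism, the intervals of the density overlapped those of the other liver lists. Of 36 genes for lipid, cholesterol and bile acid metabolism, 14 had a peak, with 30.5 per Mb (20.1 to 44.3). LPIN2, LIPG, ACSL1 and the cholesterol synthesis gene HMGCS1 had 3 each, and CYP7A1, the rate-limiting enzyme of bile acid synthesis, had 2 of 4350 and 8650 bp beyond its 3′ end. Of 33 genes for glucose, amino acid and urea metabolism, 14 had a peak, with 21.6 per Mb (13.95 to 31.8). SLC2A2, the glucose transporter GLUT2 of hepatocytes, had 5 peaks that filled 45.6% of its eligible sequence, and 91.4% of its gene body lay in peaks as well. IRS1 had 3, and IRS2, PCK1 and PPARGC1A had 2 each.

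Of 35 genes for xenobiotic metabolism and transport, 18 had a peak, with 38.2 per Mb (28.8 to 49.6), an interval that overlaps those of the other liver lists. The UGT2B genes, which attach glucuronic acid to steroids and drugs and lie side by side on chromosome 4, made up a large part. UGT2B10 had 10 peaks, UGT2B15 had 8 and UGT2B7 had 4, one of them 17750 bp wide. These genes are near-identical copies in part, and how reads were shared among the copies is not known from the list. AKR1C1 had 6 upstream peaks, the widest of which was printed above, and CYP2C8 had 5 upstream peaks while its gene body held none. Without the UGT2B genes the 5 liver lists held 28.5 peaks per Mb (24.7 to 32.8).

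In the lists of other cell types, the share of genes with a peak was between 13.3 and 23.5%. The 20.9% of all genes is not a like baseline for these shares either. The density intervals of the lists for blood cells (2.77 to 16.5) and epidermis (4.65 to 21.2) include the 13.2 per Mb of all genes. Of 34 neuronal genes 8 had a peak, led by the glutamate receptor gene GRIN2A with 4 of 500 to 2520 bp and SNAP25 with 3. NEUROD1 had 2. Of 33 muscle genes 5 had a peak, with 2 at NEB and 1 each at MYF5 and MYH7. Of 34 genes of blood cells 5 had one, with 2 at CD14 and 1 each at CD2 and CD3D. Of 30 epidermal genes 4 had one, among them DSG1 and DSC1, both desmosomal cadherins, with 3 each and SPRR1B with 1. Of 34 genes used in all cells, 3 had a peak, PSMA6 with 3 and PSMA5 and HPRT1 with 1 each, at 9.62 per Mb (3.12 to 22.4). The eligible sequence of this last list is short, with a median of 3.62 kb per gene.

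The base composition of the central 500 bp was compared with windows of the same length 10 kb to either side of the peak centre that lay outside all peaks, 13762 in number. The median GC content was 44.6% in near intergenic peaks, 43.0% in the displaced windows, 42.8% in remote and 42.6% in deep intronic peaks. Near intergenic peaks were poor in CpG for their content of C and G, with an observed/expected ratio of 0.214 over the pooled windows against 0.259 in the displaced windows. Remote and deep intronic peaks had lower ratios still, 0.198 and 0.200, and all peaks together 0.214. The ratio was lower in the peaks on 24 of 24 chromosomes and in each of 5 ranges of GC content. In the range from 50 to 58% GC it was 0.230 against 0.279. Counted by distance from the centre, it was lowest within 400 bp and reached 0.256 between 4800 and 5000 bp. Displaced windows had only to lie outside peaks, while the rule keeps the peaks away from genes and promoters. The part of this in the CpG difference was not tested.

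As a ratio, the word of HNF4 was the one that differed most from the surroundings. It was found in the central 500 bp of 228 near intergenic peaks, or 2.77% (2.44 to 3.14%), and in 72 of the 13762 displaced windows, or 0.523% (0.416 to 0.658%). The share was higher in the peaks on 23 of 24 chromosomes. It was also higher within each of the 5 ranges of GC content, for instance 2.71% (2.08 to 3.51%) against 0.569% (0.351 to 0.923%) from 42 to 46% GC. Matches were concentrated at the centre, with 59.8 per Mb in the 200 bp on either side of it (51.7 to 68.7) and 12.2 per Mb from 2000 to 5000 bp away (11.2 to 13.2). Narrow peaks held the word more often: 3.91% (3.15 to 4.84%) of the narrowest of the 4 width groups and 1.45% (1.02 to 2.07%) of the widest. Remote and deep intronic peaks had shares of 3.15% (2.69 to 3.68%) and 2.54% (2.26 to 2.85%), close to that of near intergenic peaks. Of the 224 peaks nearest to liver list genes 7 held it, or 3.13% (1.52 to 6.31%), about the share of all near intergenic peaks: 2 at CP and 1 each at SULT1E1, GSTA3, TCF7L2, CYP2B6 and FOXA2. These names were chosen after their values were seen.

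The other words differed less as a ratio, though FOX and AP-1 differed by more percentage points. The FOX word was found in 9.65% of near intergenic peaks (9.03 to 10.3%) and 7.10% of displaced windows (6.68 to 7.54%), with a higher share on 22 of 24 chromosomes. The word TGANTCA of AP-1 was found in 18.1% (17.3 to 19.0%) and 14.2% (13.6 to 14.8%), and that of HNF1 in 2.42% (2.11 to 2.77%) and 1.69% (1.49 to 1.92%). The AP-1 share was higher in the peaks on 21 of 24 chromosomes and the HNF1 share on 17. In each range below 50% GC the HNF1 share was higher in the peaks, for instance 4.22% (3.18 to 5.59%) against 2.65% (2.14 to 3.28%) from 30 to 38%. From 50 to 58% GC it was 0.335% (0.143 to 0.783%) in the peaks and 0.456% (0.231 to 0.898%) in displaced windows. For C/EBP the shares were 24.9% (24.0 to 25.8%) and 23.4% (22.7 to 24.1%), whose intervals overlap, with the higher share in the peaks on 17 of 24 chromosomes. GCGCATGCG, the word of NRF1, which is mostly found in promoters rich in CpG, was in 2 of the 8237 peaks and 10 displaced windows. The rule itself keeps these peaks away from promoters but not the displaced windows, so nothing is concluded from these counts. The FOX share was lower in near intergenic than in remote peaks, where it was 12.2% (11.3 to 13.1%).

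**Figure D5:**
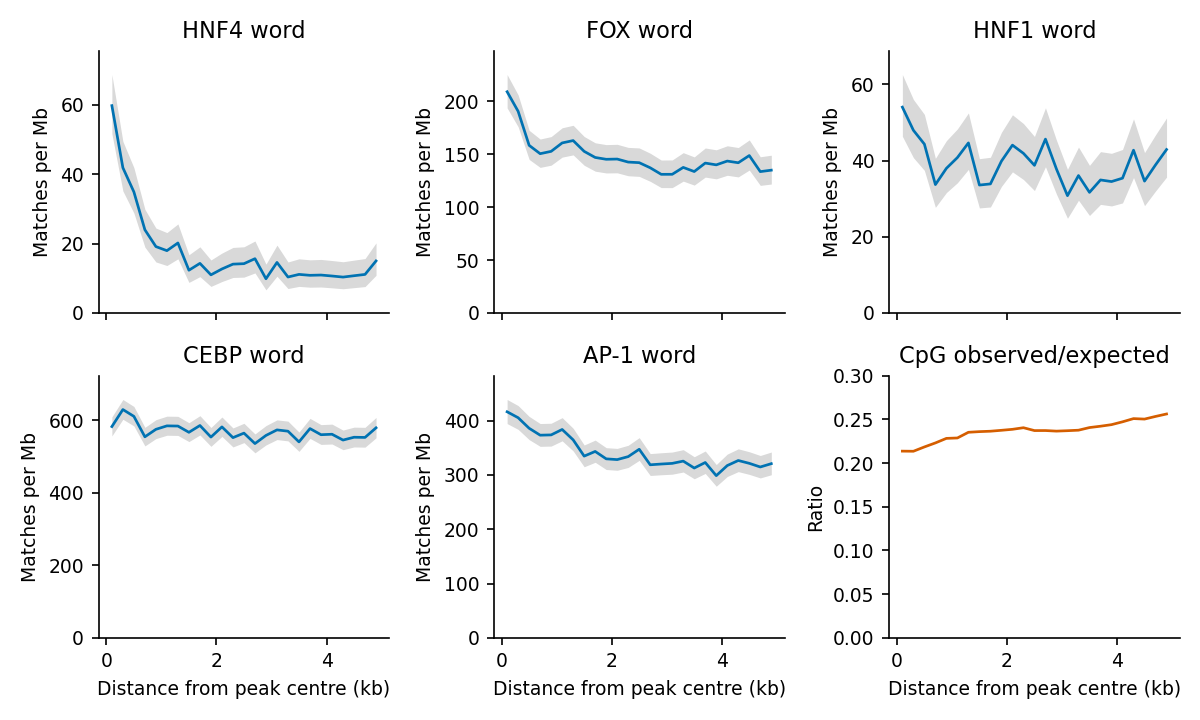
Matches of 5 words per Mb (vertical axes) and the CpG observed/expected ratio by distance in kb from the centre of near intergenic TTD peaks (horizontal axes), in steps of 200 bp, with both sides pooled and bases in other peaks left out. Grey bands are exact 95% Poisson intervals; HNF4 matches go from 59.8 per Mb at the centre to between 9.85 and 20.2 per Mb beyond 1 kb, and the CpG ratio rises from 0.214 to 0.256.

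Part of the FOX matches come from a repeated sequence. The commonest context of the FOX word in the peaks, ctgcttTGTTTACctaagc, was in 31 near intergenic peaks and 3 displaced windows and occurs 2129 times in the genome. The next, ctgcttTGTTTACctactc, was in 13 peaks and 1 displaced window and occurs 782 times. From general knowledge these letters resemble the 5′ end of LINE-1 elements, but no repeat annotation was used here. When matches counted only if the word with 6 bases on either side occurs under 20 times in the genome, the FOX share was 8.09% (7.52 to 8.69%) in the peaks and 6.63% (6.22 to 7.05%) in displaced windows. In windows with 50 to 58% GC the share in the peaks went from 10.3% to 6.17% (5.06 to 7.51%), against 3.19% (2.47 to 4.13%) of displaced windows. The HNF4 share hardly moved under this restriction, to 2.70% (2.37 to 3.07%) against 0.501% (0.396 to 0.634%). For AP-1, matches only in repeated contexts made up similar shares, 1.89% (1.62 to 2.21%) of the peaks and 1.63% (1.43 to 1.85%) of displaced windows. Its commonest context in the peaks, cccccaTGATTCAattacc, was in 17 of them and 10 displaced windows.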

How the data were processed

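The authors used Trimmomatic for clipping and filtering and HISAT2 for alignment to hg38, computed mean RPKM coverage of both TTD replicates in 10 bp bins without blacklisted regions using deepTools, called broad peaks on it with MACS2 and curated them by hand. The deposited list gives start, end and width in bp for each peak, and all 31569 widths equal end minus start. The number of reads behind a peak is unknown, so depth gives no interval here. Copy number was not corrected for.

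Everything else was computed by interval arithmetic with Python 3.11.15, numpy 2.4.6, scipy 1.17.1, pysam 0.24.0 and matplotlib 3.10.9 on the hg38 sequence and GENCODE release 44, with no blacklist used here. Each of 20033 protein-coding genes had 1 TSS, the start of its gene record. Shares have Wilson, counts and densities exact Poisson, and medians order-statistic intervals. No test was made, since 1 pooled list has no replicates and peaks are not replicates. The procedures were tested on simulated data.

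The peaks and gene lists were chosen with earlier results of these data known. Named were the 10 widest peaks, those at the distance limits, the chains with at least 8 near intergenic peaks and the 3 intervals with the most. Named too were the 10 genes with the most peaks, and of each list the 3 genes with the most (5 for liver lists), with ties broken by summed width. The densities of the liver lists, of the other lists and of all genes, and the HNF4 share, were chosen as results after seeing the data. So were their alternatives, among them those without gained chromosomes or UGT2B genes, and the rare contexts.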

Additional observations from a re-analysis of the deposited data

How the results depend on the processing

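No paired analysis was possible because both replicates went into 1 peak list, and for the same reason neither could be left out. Of 34 alternatives, 17 left their value within its counting interval or, for counts, within 1.5 times. The stricter list, of peaks no narrower than the median of all peaks (2250 bp), left 4108 near intergenic peaks, 2373 genes with one, a near over far ratio of 1.03 (0.938 to 1.13), at which the excess near the TSS is no longer seen, an FOX share of 8.64% and an HNF4 share of 1.80%. The counts of peaks and genes are lower by construction, which does not hold for the ratio and the shares. Displaced windows of the stricter list had an FOX share of 6.98% and an HNF4 share of 0.556%. Measured as cover instead of counts, the ratio reversed to 0.735. The rule lowers cover near its inner limit by construction, since peaks that reach closer are left out. From 2.5 to 5 kb, 1.47% of the eligible bases were covered, against 3.49% from 5 to 10 kb. With every protein-coding transcript start as a TSS, 68.0% of the peaks and 68.2% of the eligible sequence were upstream. The share with another peak nearby was 23.8% within 2 kb, 55.8% within 10 kb and 33.3% after joining peaks less than 1000 bp apart. With both flanking genes counted, 6348 genes had a peak. Without the chromosomes named as gained, all genes had 11.1 peaks per Mb. The FOX share was 4.12% in the central 200 bp, 17.3% in the central 1000 bp and 8.09% for rare contexts, and the HNF4 share 1.25% and 4.54% in these windows. Displaced windows of these lengths had FOX shares of 2.88% and 13.6% and HNF4 shares of 0.233% and 1.12%. Without a score, no result could be set against the strength of a peak.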

Other observations

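The short gaps between neighbouring peaks were read in the same way. In 1279 gaps under 2000 bp beside at least 1 near intergenic peak, the central 500 bp had a CpG observed/expected ratio of 0.259, like the windows 10 kb away, against 0.208 in the near intergenic peaks beside such gaps. The HNF4 word was in 13 of these gap windows, or 1.02% (0.595 to 1.73%), and in 26 of the 1964 peak windows beside them, or 1.32% (0.905 to 1.93%). The C/EBP word was in 27.9% of the gap windows (25.5 to 30.4%) and 25.3% of the peak windows (23.4 to 27.2%), with overlapping intervals.

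At least 3 of the 4 liver words (FOX, HNF4, C/EBP and HNF1) stood together in the central 500 bp of 9 near intergenic peaks, or 0.109% (0.0575 to 0.208%). It was 5 of 13762 displaced windows, or 0.0363% (0.0155 to 0.0850%), and 5 of the 1279 gap windows, or 0.391% (0.167 to 0.912%), so such sets are not more frequent in the peaks than in the gaps. One of the peaks lies 32.9 kb from the TSS of SULT1E1, the estrogen sulfotransferase, and holds the FOX, HNF4 and C/EBP words. Another, with the same words, lies 3.73 kb from PER2, a gene of the circadian clock. These peaks are named after their values were seen. Among the others, a pair at the neighbouring paralogs TRIM43 and TRIM43B lies 18.8 kb from each TSS.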
